A study of Rattus norvegicus with 6 samples.

Results

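Epithelial cells are held together by tight junctions, adherens junctions and gap junctions, and an apical and a basal side are kept apart by polarity complexes. The deposited expression table was searched for the genes of these structures by their symbols. These were claudins, occludin and the MARVEL proteins, the zonula occludens (ZO), cingulin and JAM proteins, cadherins, and alpha and p120 catenins. Also included were nectins, connexins, the Par and Crumbs complexes, the Mpp scaffold genes, and ezrin. A gene was included when its symbol matched and its reads summed to at least 10 over the 6 libraries, which gave 61 of the 13728 genes of the table. Another 11 genes matched by symbol and fell under that minimum: Cdh5, Cdh10, Cdh17, Cdh23, Cldn9, Cldn16, Cldn22, Cldn24, Cldn34e, Crb1 and Mpp4.

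Bulk RNA-seq of 3 rEEOs and 3 rBMSCs samples was compared. rEEOs are rat endometrial epithelial organoids, grown from uterine gland fragments of 5-week-old female Sprague-Dawley rats, in Matrigel, at passage 3 to 5, in a medium with Wnt3a, R-Spondin-1, noggin, EGF, FGF10, the TGF-beta receptor inhibitor A83-01 and the ROCK inhibitor Y27632. rBMSCs are rat bone marrow mesenchymal stem cells, obtained from a supplier as cells labelled with red fluorescent protein, and grown on dishes in DMEM/F12 with 10% serum; neither their age nor their sex is given in the sources used here. Cell type, substrate and medium differed together between the groups and cannot be told apart. Whether the 3 samples of a group came from separate animals or cultures is not stated. A p-value thus weighs the difference between groups against the spread between these samples, which may be technical.

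Libraries held 14892115 to 15421501 counts in rBMSCs and 10457958 to 13883993 in rEEOs. Of 8 gland epithelium markers, Epcam, Krt19, Cdh1 and Foxa2 were at 0 in all rBMSCs libraries, and the 8 summed to 2.93 to 3.57 TPM (a level scaled for transcript length and library size) in rBMSCs against 4159 to 5174 TPM in rEEOs. The 9 marrow stromal markers summed to 41220.4 to 43516 TPM in rBMSCs and to 172 to 298 TPM in rEEOs, where the highest was Vim and Thy1 and Pdgfrb were at 0. Endothelial markers (6 of 8 held) summed to 9.39 to 10.98 TPM in rBMSCs, led by Erg, and to 0.1 to 0.4 TPM in rEEOs, blood markers (4 of 6 held) to 0.08 to 0.3 and 0.28 to 1.4 TPM, and smooth muscle markers (3 of 4 held), led by Acta2, to 5773 to 6535 and 0.72 to 1.08 TPM. Each group thus held the markers of its own label at the higher summed level. Single markers could be low, such as Nt5e at 1.14, 0.69 and 1.23 TPM in rBMSCs and Foxa2 at 0.09 TPM in rEEOs replicate 2. In rEEOs the stromal sum was mostly Vim, at 171, 297 and 227 TPM, while Col1a1, Col1a2 and Col3a1 were at most 0.16 TPM. The source of Vim in rEEOs and its part in the values below were not tested. In bulk RNA, fewer cells of a type and less RNA per cell cannot be told apart.

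In a tight junction, claudins form the paracellular barrier and its pores, occludin and the MARVEL proteins join them in the membrane, and ZO proteins and cingulins tie them to actin. Adherens junctions bind cell to cell through cadherins, held to actin by catenins, and through nectins. Gap junctions are channels made of connexins, and which connexins a cell makes sets what passes between neighbours. In glandular epithelium such as that of the endometrium, the tight and adherens junctions lie around the apex of each cell, whose apical side is set by the Crumbs and Par complexes.

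Of the 61 genes, 54 entered the test by a filter of 10 counts in 3 or more libraries, and 41 differed between rEEOs and rBMSCs by the study's thresholds, namely an adjusted p under 0.05 and an absolute log2 fold change above 2 in edgeR's quasi-likelihood test. They were 30 genes higher and 11 lower in rEEOs, which is 55.6% and 20.4% of the 54, against 16.3% and 13.3% of the 10607 genes tested (29.7% called in either direction). On the adjusted p alone, 45 passed, 32 of them higher and 13 lower, against 63.4% of all genes tested (33.3% higher and 30.2% lower). The 3 rEEOs values did not overlap the 3 rBMSCs values for 47 of the 54, where 72.8% of all genes tested did not overlap. A median log2 fold change of 3.06, with genes absent from one cell type set at their bound, compares with 0.08 over all genes tested. A filter on counts lets in genes that are high in one cell type alone, and 19 of the tested genes were at 0 in all rBMSCs libraries and 1, Gjc1, at 0 in all rEEOs libraries, so these counts and this median are a description and not a test of the group. Differences of such genes are given as bounds, taken against 3 counts per library in the cell type at 0. Where a cell type held 1 to 3 reads in all, a ratio is given with a 95% exact interval. It is the ratio of counts summed over each group, scaled by the summed effective library sizes. These intervals and bounds cover counting error only. The remaining 7 genes, among them Gja3, Gja4, Gja5, Gjb6, Jam2 and Mpp3, were below the filter.

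**Figure D1:**
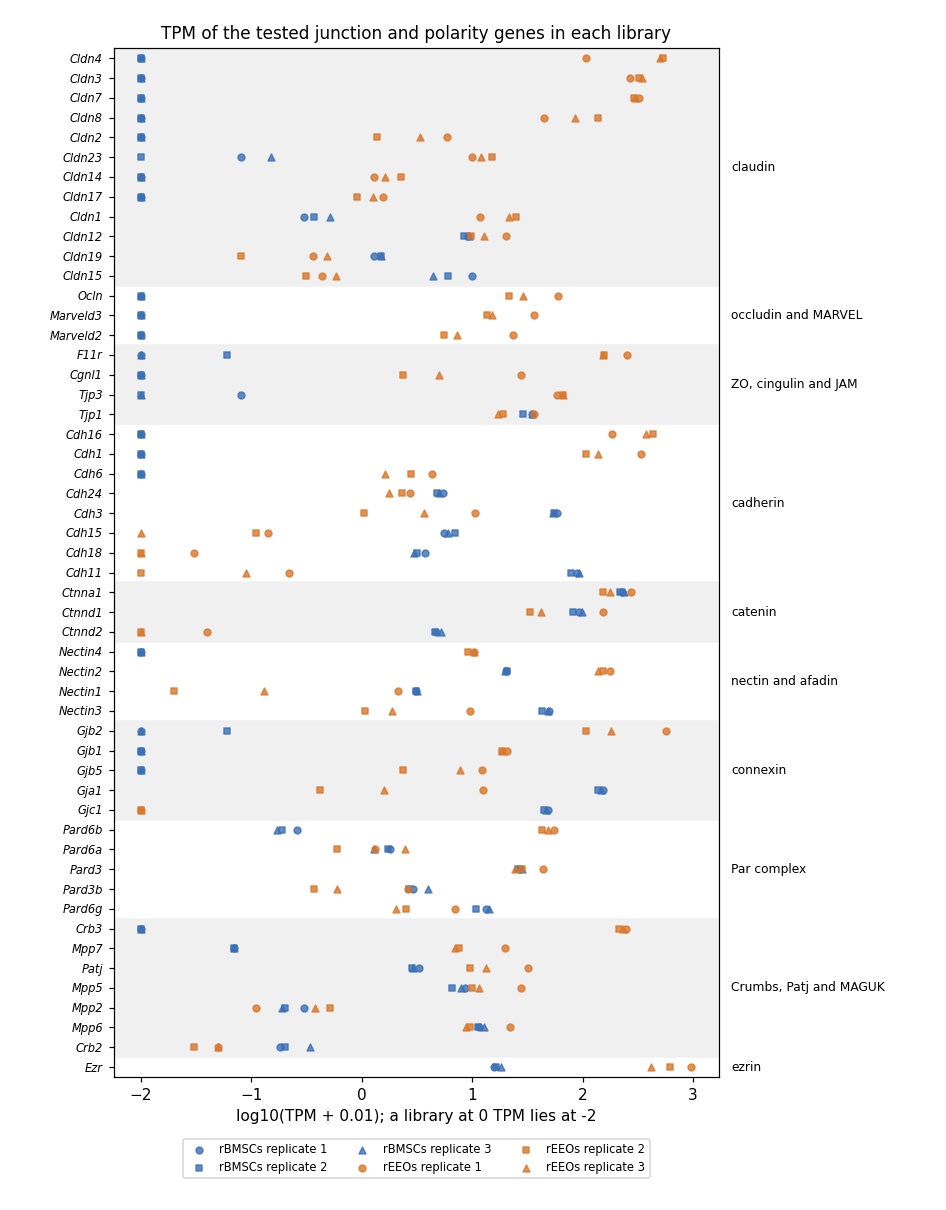
Level of 52 of the tested genes in each library, by family. The x axis is log10(TPM + 0.01), on which a library at 0 TPM lies at -2. Blue points are rBMSCs and orange points are rEEOs, with the shape giving the replicate. Orange points lie to the right of blue points for most claudins and for every occludin and MARVEL gene, and to the left for Gja1, Gjc1, Cdh11, Cdh18, Cdh15 and Ctnnd2.

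**Figure D2:**
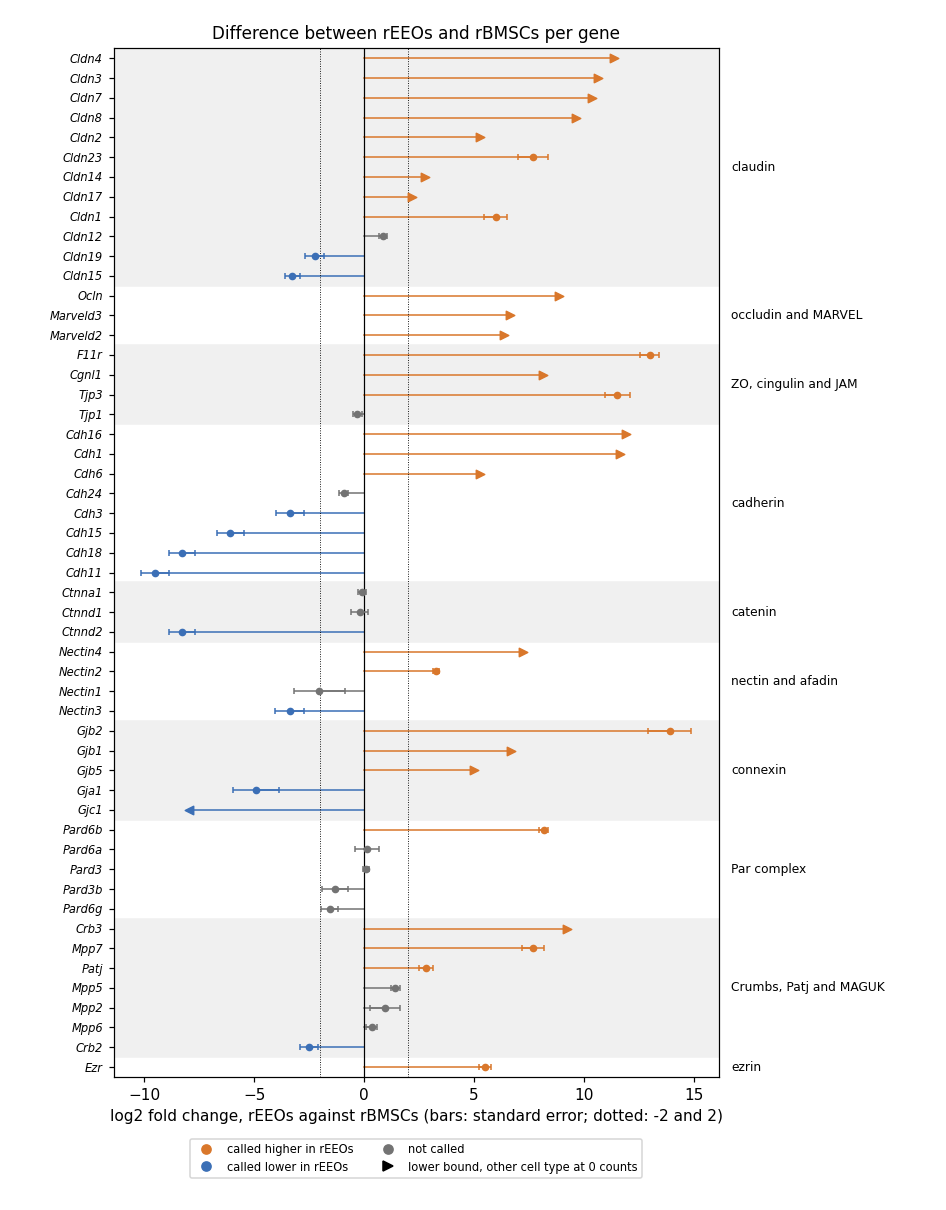
Difference between rEEOs and rBMSCs for 52 of the tested genes, by family. The x axis is the log2 fold change, bars are its standard error, arrows are lower bounds for genes at 0 in the other cell type, and dotted lines mark -2 and 2. Points of genes with 1 to 3 reads in one cell type, such as Gjb2, depend on the prior count. The 28 drawn genes called higher are orange, the 11 called lower are blue and the 13 not called are grey.

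Upstream sequence was taken from RefSeq (assembly GRCr8) for the 42 of the 61 genes that have an entry, as the 250 bases before the start, and 11 short motifs were counted on both strands. The E-box CAGGTG is the form known from the E-cadherin promoter, where repressors of the Snail and Zeb families bind. Cdh1, which encodes E-cadherin, has no entry and was not searched. CAGGTG occurred upstream of 9 of 19 genes higher in rEEOs with an entry (Cldn3, Cldn7, Cldn14, Crb3, F11r, Gjb2, Ocln, Patj and Tjp3) and of 0 of 8 lower ones, and in 15.6% of all 27457 promoters. Over all 42 genes with an entry, called or not, 13 had CAGGTG. The wider E-box CANNTG, which includes CAGGTG, occurred upstream of 19 of 19 and 3 of 8, against 65.2% of all. Over all 42 genes, 34 had CANNTG. For the GC box GGGCGG these counts were 11 of 19 and 5 of 8 (32.4% of all), and 25 of all 42 genes had it. For the AP-1 motif TGANTCA they were 1 of 19 and 2 of 8 (6.36% of all), the latter being Cldn15 and Gja1. It was upstream of 3 of all 42 genes. Of the other 7 motifs, the TATA box TATAAA was upstream of 2 of the 19 and 0 of the 8 (13.1% of all), and the T-cell factor motif CTTTGA likewise of 2 and 0 (13.8% of all). The forkhead motif TGTTTAC was upstream of none of these 27 genes (3.25% of all), as were the grainyhead motif AACCGGTT (0.138%) and its wider form, AACCNGTT (1.65%), which includes it. The motif TGCATG was found for 2 and 0 (8.77% of all) and, as an arbitrary comparison, GGATCC for 1 and 1 (5.24% of all). A match is a description of the sequence and not evidence of a bound site. The upstream sequences of 4 genes higher in rEEOs, 1 from each of the claudins, the Crumbs complex, occludin and the connexins, are shown 5′ to 3′ on the gene's strand with CAGGTG or CACCTG in capitals, and that of the connexin Gja1, lower in rEEOs, with TGANTCA in capitals.
Cldn7 (chr10:55188420-55188669, + strand): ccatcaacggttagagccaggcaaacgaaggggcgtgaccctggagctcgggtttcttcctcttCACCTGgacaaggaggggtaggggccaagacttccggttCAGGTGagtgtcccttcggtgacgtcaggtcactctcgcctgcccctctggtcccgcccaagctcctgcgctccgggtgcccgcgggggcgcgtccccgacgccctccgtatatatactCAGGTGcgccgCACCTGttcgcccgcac
Crb3 (chr9:1987504-1987753, + strand): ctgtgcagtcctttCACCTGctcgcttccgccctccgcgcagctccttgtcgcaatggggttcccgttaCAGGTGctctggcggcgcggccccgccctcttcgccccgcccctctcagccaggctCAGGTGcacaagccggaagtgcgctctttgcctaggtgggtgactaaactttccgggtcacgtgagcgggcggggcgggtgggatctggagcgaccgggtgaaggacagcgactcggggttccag
Ocln (chr2:33441199-33441448, - strand): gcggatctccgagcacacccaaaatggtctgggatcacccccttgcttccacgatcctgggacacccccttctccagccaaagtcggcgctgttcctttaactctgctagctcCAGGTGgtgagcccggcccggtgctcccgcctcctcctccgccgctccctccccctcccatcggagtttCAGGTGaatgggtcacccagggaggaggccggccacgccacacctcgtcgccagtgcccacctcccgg
Gjb2 (chr15:35381954-35382203, - strand): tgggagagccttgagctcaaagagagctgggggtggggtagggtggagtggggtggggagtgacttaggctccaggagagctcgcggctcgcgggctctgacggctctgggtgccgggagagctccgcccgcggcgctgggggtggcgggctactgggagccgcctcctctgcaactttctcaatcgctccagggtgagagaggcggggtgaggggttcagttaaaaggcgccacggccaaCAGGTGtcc
Gja1 (chr20:36302314-36302563, + strand): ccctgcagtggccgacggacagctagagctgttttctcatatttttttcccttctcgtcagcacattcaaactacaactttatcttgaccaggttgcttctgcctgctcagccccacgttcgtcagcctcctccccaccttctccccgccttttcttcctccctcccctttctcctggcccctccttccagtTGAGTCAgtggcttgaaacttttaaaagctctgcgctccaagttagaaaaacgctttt
The capitals begin 186, 147, 28 and 17 bases before the start in Cldn7, 236, 181 and 125 in Crb3, 137 and 68 in Ocln, 9 in Gjb2 and 58 in Gja1.

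Among the claudins, the strands of the tight junction, 9 of 12 were called higher in rEEOs and 2 lower. These shares were 75% and 16.7%, against 16.3% and 13.3% of all genes tested. Cldn3, Cldn4 and Cldn7, the claudins common to many glandular epithelia, were at 0 in all 3 rBMSCs libraries and were the highest claudins of rEEOs. Cldn3 was at 272, 327 and 344 TPM in rEEOs replicates 1, 2 and 3, at least 1619.6-fold higher in mean CPM (counts scaled to the effective library size) than the bound of 3 counts (edgeR, adjusted p = 8.35e-05). Levels of Cldn7 were 324, 295 and 299 TPM, at least 1339.8-fold higher (edgeR, adjusted p = 2.53e-05). Cldn4 was less even, at 108, 535 and 500.4 TPM, at least 2669.8-fold higher (edgeR, adjusted p = 0.00164), with replicate 1 well below the other 2. Cldn8, another barrier claudin, had its lowest value in the same library, at 44.8, 139 and 86.2 TPM (at least 807-fold, edgeR, adjusted p = 0.001). Cldn1, a claudin of tight barriers such as that of skin, was at 0.29, 0.36 and 0.5 TPM in rBMSCs and 11.9, 24.9 and 21.6 TPM in rEEOs, a log2 fold change of 5.99 ± 0.53 (SE, edgeR, adjusted p = 0.000158).

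The other 4 claudins called higher were at lower levels. Cldn23 had 1 and 2 reads in 2 of the rBMSCs libraries and 9.89, 15 and 12 TPM in rEEOs, a ratio of 222-fold (interval 75.7 to 1080.0). Cldn2, which forms cation pores, was at 5.92, 1.35 and 3.33 TPM in rEEOs, Cldn14 at 1.27, 2.24 and 1.60 TPM and Cldn17 at 1.54, 0.9 and 1.26 TPM, and all 3 were at 0 in rBMSCs. Their bounds were at least 38.8-fold, at least 6.78-fold and at least 4.53-fold higher, and Cldn14 was not called by limma on log2(TPM + 1), with a log2 fold change of 1.42. In the opposite direction, Cldn15, a pore-forming claudin known from intestine, was at 9.86, 6.00 and 4.42 TPM in rBMSCs and 0.43, 0.3 and 0.57 TPM in rEEOs (log2 fold change -3.26 ± 0.33, edgeR, adjusted p = 0.000284). Cldn19 was at 1.28, 1.48 and 1.49 TPM against 0.35, 0.07 and 0.47 TPM (-2.25 ± 0.43, edgeR, adjusted p = 0.00428), and this call was lost without rEEOs replicate 2, at -1.93. Cldn12 was measured in both cell types, at 9.21, 8.38 and 9.29 TPM in rBMSCs and 20.4, 9.81 and 12.7 TPM in rEEOs, and its log2 fold change of 0.87 ± 0.17 had an adjusted p of 0.00502 in edgeR but stayed under the threshold of 2. Summed over the 12 genes, claudin transcripts came to 20.7, 16.2 and 15.8 TPM in rBMSCs and 800.3, 1350.1 and 1284 TPM in rEEOs. Cldn12 and Cldn15 made up 51.6% ± 7.09 and 37.5% ± 9.86 (SD, n = 3) of the sum in rBMSCs, while Cldn3, Cldn4 and Cldn7 made up 28.4% ± 5.03, 30.7% ± 14.9 and 28.5% ± 10.4 in rEEOs. Within rEEOs the order of these 3 is not settled, since Cldn4 was the lowest of them in replicate 1 and the highest in replicates 2 and 3.

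Occludin and both MARVEL genes were called higher in rEEOs, and each was at 0 in all rBMSCs libraries. Ocln encodes occludin, the first integral protein known from tight junctions, and was at 60.1, 21.5 and 28.6 TPM in rEEOs (at least 469.7-fold higher, edgeR, adjusted p = 0.000135). Marveld2 encodes tricellulin, which seals the corners where cells meet, and was at 23.6, 5.56 and 7.26 TPM (at least 83.5-fold, edgeR, adjusted p = 0.00123), or at least 53.8-fold higher without replicate 1. Marveld3, a close relative, was at 36.6, 13.7 and 15.3 TPM (at least 99.3-fold, edgeR, adjusted p = 0.000277). All 3 had their highest value in rEEOs replicate 1.

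The ZO, cingulin and JAM genes of the tight junction divided by member: Tjp3, F11r and Cgnl1 were called higher and Tjp1 was not called. Tjp1 encodes ZO-1, which also sits at the cadherin contacts of cells without tight junctions, and was at 34.8, 29.1 and 34.6 TPM in rBMSCs and 36.4, 18.8 and 17.2 TPM in rEEOs (log2 fold change -0.30 ± 0.19, edgeR, adjusted p = 0.213), with overlapping groups and, under library-size scaling, the opposite sign (0.089). Without rEEOs replicate 1 the log2 fold change of Tjp1 was -0.48 (edgeR, adjusted p = 0.00622), still not called. Tjp3, for ZO-3, the paralogue restricted to epithelia, had 2 reads in the 3 rBMSCs libraries together, both in replicate 1, and 59.3, 66.7 and 66.2 TPM in rEEOs, a ratio of 3411-fold (interval 944 to 28173) (edgeR, adjusted p = 1.85e-05). Tjp1 and Tjp3 thus went from overlapping levels in both cell types to near absence in one. F11r, for the adhesion protein JAM-A, had 1 read in rBMSCs, in replicate 2, and was at 255, 156 and 154 TPM in rEEOs, a ratio of 11466-fold (interval 2057 to 452911) (edgeR, adjusted p = 5.63e-06). Cgnl1, for the actin linker paracingulin, was at 0 in rBMSCs and at 27.8, 2.33 and 5.03 TPM in rEEOs, at least 283-fold higher (edgeR, adjusted p = 0.00485), and at least 114-fold without replicate 1, which held most of its reads. Jam2, below the filter, reached at most 0.38 TPM in any library. Tjp1 made up 91.5% ± 0.969 (SD, n = 3) of the TPM of these 6 genes in rBMSCs and 7.39% ± 1.01 in rEEOs, where F11r made up 59.05% ± 0.546.

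Cadherins are calcium-dependent adhesion proteins, and the family, grouped here by symbol, is wider than the cadherins of adherens junctions. They differed in both directions: of 8 tested, 3 were called higher in rEEOs and 4 lower. These shares were 37.5% and 50%, against 16.3% and 13.3% of all genes tested. Cdh1 encodes E-cadherin, which defines epithelial contacts, and was at 0 in all rBMSCs libraries and at 338, 108 and 137 TPM in rEEOs replicates 1, 2 and 3 (at least 3188-fold higher, edgeR, adjusted p = 0.000144). Cdh16 encodes kidney-specific (KSP) cadherin, known from kidney tubules, and was at 0 in rBMSCs and at 183, 439 and 376 TPM in rEEOs (at least 3899-fold, edgeR, adjusted p = 0.000399). Replicate 1 was the highest of the 3 rEEOs libraries for Cdh1 and the lowest for Cdh16. Cdh6, also called K-cadherin, was lower, at 4.31, 2.79 and 1.61 TPM in rEEOs and 0 in rBMSCs (at least 39.3-fold, edgeR, adjusted p = 0.000569), and on log2(TPM + 1) its difference of 1.91 by limma fell short of the threshold.

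Cdh11, the osteoblast cadherin typical of mesenchymal cells, was at 89.5, 79.2 and 92.8 TPM in rBMSCs and 0.21, 0 and 0.08 TPM in rEEOs (log2 fold change -9.51 ± 0.64, edgeR, adjusted p = 4.95e-05). Cdh3, for P-cadherin, was at 58.6, 55.5 and 54.5 TPM against 10.7, 1.04 and 3.68 TPM (-3.36 ± 0.64, edgeR, adjusted p = 0.00428). P-cadherin is best known from the basal layers of epithelia, and here its level was higher in the marrow cells in every library. Cdh18, a neuronal cadherin, was at 3.73, 3.14 and 2.94 TPM in rBMSCs and had 1 read in rEEOs, in replicate 1, so that rBMSCs were higher by a ratio of 423-fold (interval 75.5 to 16745) (edgeR, adjusted p = 5.86e-05). Cdh15, a muscle cadherin, was at 5.56, 7.05 and 6.05 TPM against 0.13, 0.1 and 0 TPM (-6.08 ± 0.61, edgeR, adjusted p = 0.000266). Cdh24 was in both cell types, at 5.39, 4.83 and 5.04 TPM and 2.74, 2.32 and 1.74 TPM (-0.92 ± 0.21, edgeR, adjusted p = 0.0082, under the threshold of 2). Without rEEOs replicate 1 the log2 fold changes were -10.62 for Cdh11 and -4.15 for Cdh3, both further from 0 than with all libraries, and Cdh18 was at 0. The summed TPM of the 8 cadherins was 163, 149.8 and 161 TPM in rBMSCs and 539, 553 and 519 TPM in rEEOs. Cdh11 and Cdh3 made up 55.1% ± 2.32 and 35.6% ± 1.68 (SD, n = 3) of the sum in rBMSCs. In rEEOs the sum was even across libraries but its parts were not: Cdh1 made up 62.7, 19.5 and 26.3% and Cdh16 33.98, 79.4 and 72.3% of it in replicates 1, 2 and 3. Cdh3 and Cdh1 are neighbours on rat chromosome 19 with no protein-coding gene between them in RefSeq, and they differed in opposite directions.

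The catenins behind the cadherins were present in both cell types, apart from Ctnnd2. Ctnna1, for alpha-E-catenin, the link to actin, was at 227, 220.3 and 239 TPM in rBMSCs and 276, 154 and 176 TPM in rEEOs (log2 fold change -0.09 ± 0.18, edgeR, adjusted p = 0.683); some of its reads were shared with other genes in the authors' estimate. Ctnnd1, for p120-catenin, which keeps cadherins at the membrane, was at 91.9, 82.1 and 97.9 TPM against 152, 33.1 and 41.95 TPM (-0.20 ± 0.39, edgeR, adjusted p = 0.661). For both genes the rBMSCs values lay within the range of the rEEOs values, and the sign of the difference turned under library-size scaling, to 0.30 and 0.20. Without rEEOs replicate 1 the log2 fold change of Ctnnd1 was -0.77 (edgeR, adjusted p = 0.00169), still not called. Ctnnd2, for delta-catenin, best known from neurons, was at 4.74, 4.64 and 5.18 TPM in rBMSCs and had 2 reads in rEEOs, both in replicate 1, so that rBMSCs were higher by a ratio of 362-fold (interval 99.8 to 2993) (edgeR, adjusted p = 6.59e-05). Nectins, immunoglobulin-like receptors that start cell contacts, divided 2 higher, 1 lower and 1 not called. Over all genes tested, 16.3% were called higher and 13.3% lower. Nectin2 was at 20.04, 20.8 and 19.8 TPM in rBMSCs and 177, 153 and 137 TPM in rEEOs (3.28 ± 0.14, edgeR, adjusted p = 1.16e-05). Nectin4 was at 0 in rBMSCs and at 10.4, 9.21 and 10.4 TPM in rEEOs (at least 149.7-fold higher, edgeR, adjusted p = 7.26e-05). Nectin3 was the main nectin of rBMSCs, at 49.3, 43.1 and 48.2 TPM against 9.49, 1.05 and 1.88 TPM in rEEOs (-3.39 ± 0.67, edgeR, adjusted p = 0.00492). Nectin1 was at 3.06, 3.09 and 3.15 TPM in rBMSCs and 2.13, 0.01 and 0.12 TPM in rEEOs and was not called (-2.04 ± 1.16, edgeR, adjusted p = 0.166). Without rEEOs replicate 1, where both were highest, log2 fold changes were -4.53 for Nectin3 and -5.10 for Nectin1, and Nectin1 was called (edgeR, adjusted p = 0.000148). Nectin3 made up 66.7% ± 2.08 (SD, n = 3) of nectin TPM in rBMSCs, and Nectin2 91.4% ± 2.41 in rEEOs.

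Connexins, the subunits of gap junction channels, differed in both directions between the cell types. All 6 tested were called, against 29.7% of all genes tested. Gjb2 and Gjb1 were among those higher in rEEOs, and Gja1 and Gjc1 were lower. Gja1 encodes connexin 43, the common connexin of stromal and bone cells, and was at 154, 138 and 146 TPM in rBMSCs and 12.4, 0.41 and 1.58 TPM in rEEOs (log2 fold change -4.90 ± 1.04, edgeR, adjusted p = 0.00658). The rEEOs value came mostly from replicate 1, and without it the log2 fold change was -6.76 (edgeR, adjusted p = 3.02e-05). Gjc1, for connexin 45, was at 48.2, 44.7 and 46.5 TPM in rBMSCs and at 0 in all rEEOs libraries, at least 249-fold lower (edgeR, adjusted p = 2.57e-05). Gjb2, for connexin 26, known from gland and uterine epithelium, had 1 read in rBMSCs, in replicate 2, and was at 573, 108 and 183 TPM in rEEOs, a ratio of 23315-fold (interval 4184 to 920916) (edgeR, adjusted p = 5.98e-05). Replicate 1 was again the highest, and without it the fitted log2 fold change moved from 13.92 to 13.24, values that depend on the prior count since rBMSCs held 1 read. Gjb1, for connexin 32, was even across rEEOs, at 20.7, 18.4 and 18.7 TPM, and at 0 in rBMSCs (at least 104-fold higher, edgeR, adjusted p = 8.66e-05). Gjb5, a connexin described in skin, was at 12.3, 2.33 and 7.80 TPM in rEEOs and at 0 in rBMSCs (at least 32.4-fold higher, edgeR, adjusted p = 0.00238). Of the connexins below the filter, Gja3, Gja4, Gja5 and Gjb6 did not exceed 1.59 TPM in any library.

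Summed connexin TPM was 203, 184 and 193 TPM in rBMSCs and 633, 131 and 223 TPM in rEEOs, so the range of rEEOs covered that of rBMSCs. What the sum was made of differed: Gja1 and Gjc1 made up 75.5% ± 0.294 and 24.1% ± 0.287 (SD, n = 3) of it in rBMSCs, and Gjb2 and Gjb1 85.04% ± 4.79 and 8.57% ± 5.39 in rEEOs. Gja1 made up 1.96, 0.312 and 0.71% of the rEEOs sum in replicates 1, 2 and 3. These shares are descriptions of each library and were not tested.

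**Figure D3:**
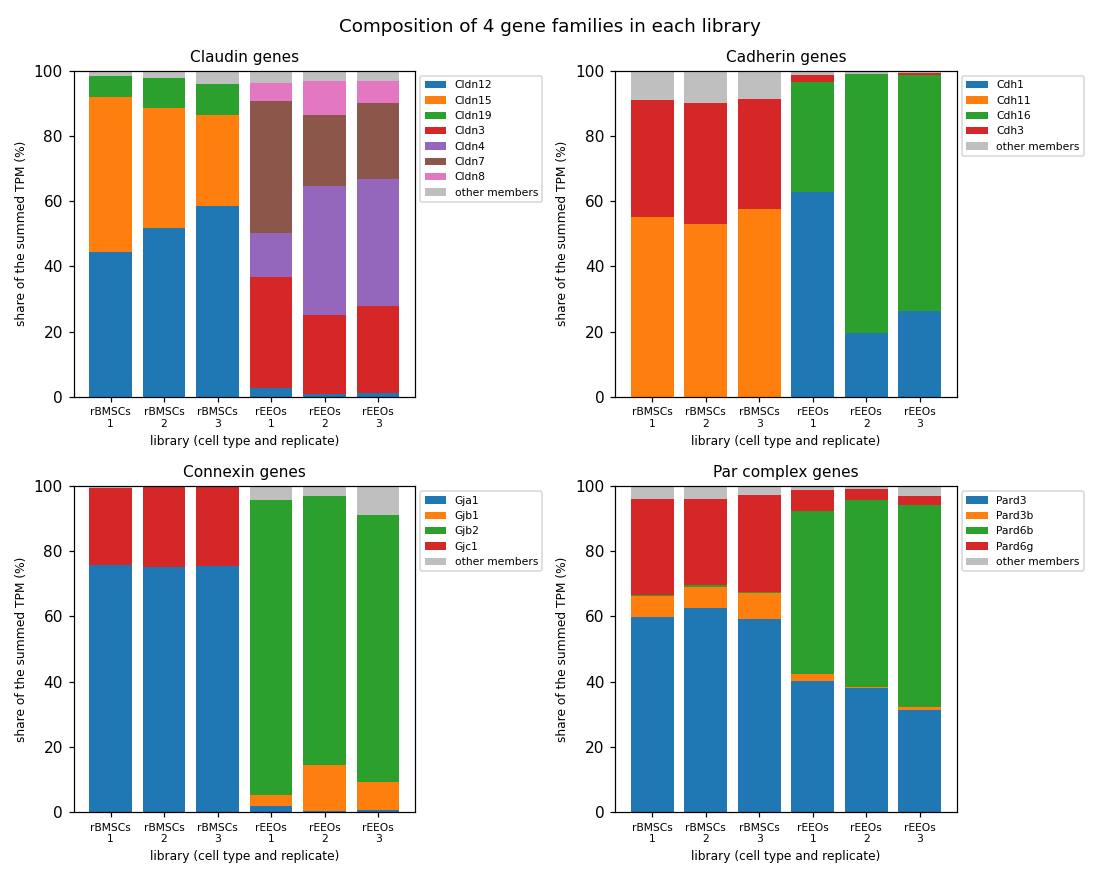
Make-up of the summed TPM of 4 gene families in each library, with the share of the sum in percent on the y axis and the 6 libraries on the x axis. Colours are genes and grey is the rest of the family. Gja1 and Gjc1 fill the connexin bars of rBMSCs and Gjb2 most of those of rEEOs, and the Cdh1 share of the cadherin bars is 62.7% in rEEOs replicate 1 and 19.5% in replicate 2.

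The Par complex sets the apical side of a cell and places the tight junction. Of its 5 genes, 1, Pard6b, was called, and it was higher in rEEOs. That share of 20% is near the 16.3% of all genes tested called higher, and below the 29.7% called in either direction. Pard6b, an adaptor between Cdc42 and atypical protein kinase C, was at 0.25, 0.18 and 0.16 TPM in rBMSCs and 55.2, 42.6 and 48.1 TPM in rEEOs (log2 fold change 8.18 ± 0.21, edgeR, adjusted p = 4.59e-06). Its partner Pard3 was at 27.3, 25.9 and 28.4 TPM against 44.2, 28.1 and 24.3 TPM (0.10 ± 0.15, edgeR, adjusted p = 0.599), with overlapping groups. The paralogue Pard6g was at 13.4, 10.9 and 14.3 TPM against 7.02, 2.51 and 2.05 TPM (-1.57 ± 0.38, edgeR, adjusted p = 0.0112), under the threshold of 2, and some of its reads were shared with other genes. Pard6a was near 1.59 TPM in rBMSCs and at 1.32, 0.58 and 2.46 TPM in rEEOs, and its log2 fold change of 0.14 ± 0.54 (edgeR, adjusted p = 0.831) had the opposite sign in limma, at -0.15 on log2(TPM + 1). Pard3b was at 2.91, 2.66 and 3.94 TPM against 2.62, 0.36 and 0.59 TPM (-1.32 ± 0.60, edgeR, adjusted p = 0.0955). Without rEEOs replicate 1, Pard3b and Pard6g were called lower, at -2.30 and -2.03 (edgeR, adjusted p = 0.000745 and 0.000358), and Pard3 was at -0.02. Of the 3 Pard6 paralogues, Pard6g was the highest in rBMSCs and Pard6b in rEEOs in every library, and Pard6b made up 56.5% ± 6.09 (SD, n = 3) of the TPM of the 5 genes in rEEOs against 0.438% ± 0.107 in rBMSCs.

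The Crumbs complex is the other apical module, and its genes were grouped with all Mpp scaffold genes. Of 7 tested in this wider group, 3 were called higher in rEEOs and 1 lower. These shares were 42.9% and 14.3%, against 16.3% and 13.3% of all genes tested. Crb3, the Crumbs protein of epithelia, was at 0 in rBMSCs and at 248, 216 and 233 TPM in rEEOs (at least 595-fold higher, edgeR, adjusted p = 2.72e-05), with little spread between libraries. Crb2, its paralogue, was low in both, at 0.17, 0.19 and 0.33 TPM in rBMSCs and 0.04, 0.02 and 0.04 TPM in rEEOs (-2.50 ± 0.42, edgeR, adjusted p = 0.00254). Patj, a scaffold that binds ZO-3 and claudins, was at 3.26, 2.84 and 2.93 TPM against 32.1, 9.52 and 13.3 TPM (2.83 ± 0.33, edgeR, adjusted p = 0.000527). Mpp7, a MAGUK scaffold of tight junctions, had 1 read in each rBMSCs library and was at 19.8, 7.51 and 6.93 TPM in rEEOs, a ratio of 245-fold (interval 83.7 to 1193). Mpp5, which RefSeq names Pals1 and which joins Crumbs to Patj, was at 8.62, 6.62 and 7.94 TPM against 27.8, 9.93 and 11.5 TPM, and with a log2 fold change of 1.42 ± 0.21 (edgeR, adjusted p = 0.00146) it stayed under the threshold of 2. Mpp6 (Pals2 in RefSeq) was at 11.6, 11.2 and 12.8 TPM against 22.1, 9.57 and 8.81 TPM (0.34 ± 0.25, edgeR, adjusted p = 0.269), and Mpp2 at most 0.5 TPM in any library (0.95 ± 0.68, edgeR, adjusted p = 0.255). Without rEEOs replicate 1 the log2 fold change of Mpp2 was 1.46 (edgeR, adjusted p = 0.01) and without replicate 2 it was 0.35 (edgeR, adjusted p = 0.678), and it was called in neither. Ezr encodes ezrin, which ties the apical membrane and its microvilli to actin, and at 969.5, 622 and 421 TPM in rEEOs it had the highest mean TPM of the 61 genes there, against 15.7, 16.3 and 18.4 TPM in rBMSCs (5.52 ± 0.28, edgeR, adjusted p = 1.83e-05).

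Several of these genes lie side by side in the RefSeq annotation of GRCr8. Cldn3 and Cldn4 (chromosome 12), Cldn8 and Cldn17 (chromosome 11), and Ocln and Marveld2 (chromosome 2) have no protein-coding gene between them, and in each pair both were called higher in rEEOs. Cldn17 was at 1.23 TPM on average in rEEOs beside 89.9 TPM for Cldn8, so neighbours could differ widely in level. Gjb6 adjoins Gjb2 on chromosome 15 and stayed at or below 0.32 TPM in rEEOs. Nectin4 and F11r, both called higher, are separated by 3 protein-coding genes on chromosome 13. Cdh3 and Cdh1, described above, were the adjacent pair called in opposite directions.

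The 3 rEEOs libraries differed more from each other than the rBMSCs libraries: over all genes tested, the median SD of log2(CPM + 1) was 0.340 in rEEOs and 0.0877 in rBMSCs. Replicate 1, which also had the most counts of the 3, stood apart from the other rEEOs libraries, and the junction genes deviated there in both directions. Of 47 tested members with a mean of at least 10 counts in rEEOs, 27 (57.4%) were highest by CPM in replicate 1 and 15 (31.9%) lowest. This compares with 42.5% and 42.9% of 9865 genes chosen the same way. The order could depend on the scale: Cldn7, Crb3, Pard6b, Gjb1 and Nectin4 were lowest in replicate 1 by CPM and highest there by TPM. With 0.5 CPM added to each value, which pulls the ratios of low genes towards 1, more than 2-fold above the mean of replicates 2 and 3 were 10 members (21.3%, against 12.03% of all), and more than 2-fold below it 5 (10.6%, against 9.79%). On this scale of CPM + 0.5, those above were Nectin1 at 10.7-fold, Gja1 at 7.88-fold, Cgnl1 at 5.37-fold, Nectin3 at 4.30-fold, Pard3b at 3.29-fold, Cdh3 at 3.15-fold, Gjb2 at 2.82-fold, Marveld2 at 2.59-fold, Ctnnd1 at 2.50-fold and Patj at 2.01-fold. They mix genes that are high in rBMSCs, such as Gja1, Nectin3 and Cdh3, with genes absent there, such as Cgnl1 and Marveld2. Those below, on the same scale, were Cldn4, at 0.149 times the mean of the other libraries, Cldn8 at 0.284 times, Cdh16 at 0.32 times, Mpp2 at 0.363 times and Cldn1 at 0.368 times. Foxa2, a gland transcription factor, was at 11.1, 0.09 and 3.46 TPM in rEEOs replicates 1, 2 and 3, and Col1a1 at 0.16 TPM or less in each, and the part of either in the spread of the junction genes was not tested. Leaving out replicate 1 gave 30 members higher and 14 lower, against 17.2% and 15.7% of all genes tested, with Nectin1, Pard3b and Pard6g added to those lower.

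**Figure D4:**
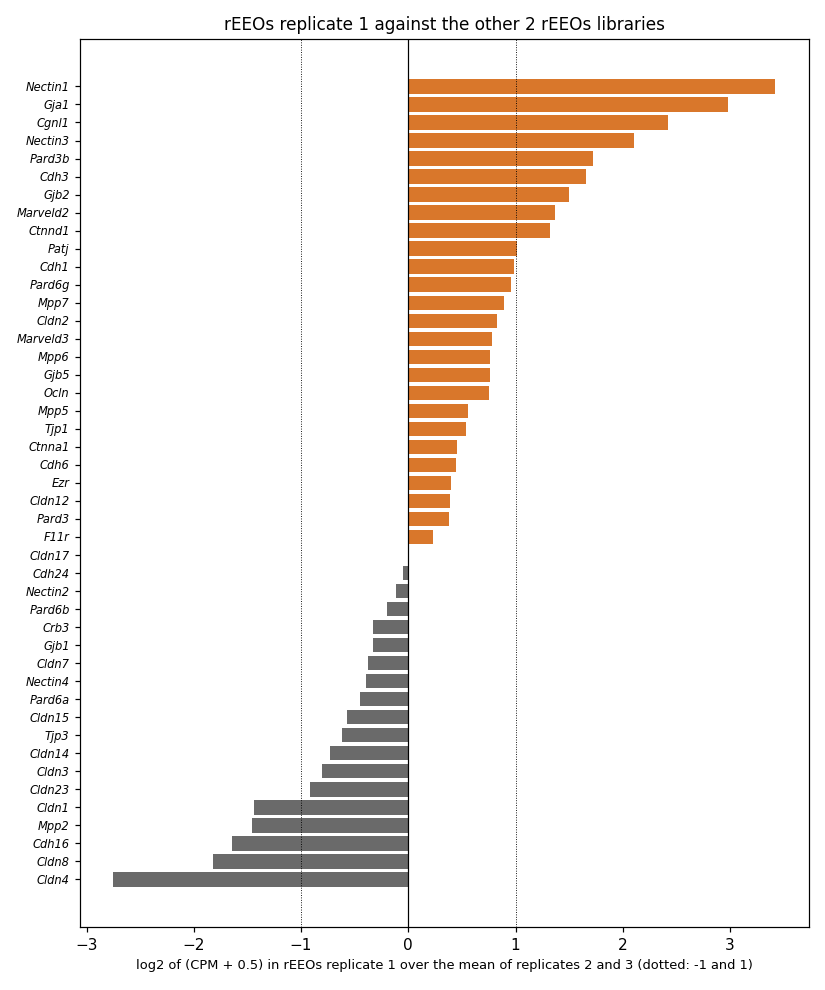
Deviation of rEEOs replicate 1 from the other 2 rEEOs libraries for 45 junction and polarity genes, with the log2 ratio of (CPM + 0.5) on the x axis and dotted lines at -1 and 1. Orange bars are genes higher in replicate 1 and grey bars genes lower. Nectin1 and Gja1 have the longest bars to the right and Cldn4 and Cldn8 the longest to the left.

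Junction and polarity genes outside the symbol rule were taken from a list of 59 chosen by textbook role, of which 47 are in the table and 44 were tested. Of the 44, 15 were called higher in rEEOs (34.1%, against 16.3% of all genes tested) and 4 lower (9.09%, against 13.3%), and a further 15 had an adjusted p under 0.05 in edgeR with a change under the threshold. On the adjusted p alone, 18 were higher and 16 lower, against 33.3% and 30.2% of all genes tested. The median log2 fold change of the list was 0.12, against 0.08 over all genes tested. Epcam, an epithelial adhesion protein that stabilizes claudins, was at 0 in rBMSCs and at 1113, 1059.9 and 1062 TPM in rEEOs (at least 5829.6-fold higher, edgeR, adjusted p = 2.38e-05), above every member of the symbol rule in mean TPM. Lsr, for the angulin that recruits tricellulin to cell corners, was at 0 against 172, 123 and 118 TPM (at least 977-fold, edgeR, adjusted p = 1.51e-05). Panx2, a pannexin, which forms channels related in shape to those of connexins, was at 0 against 33.1, 24.1 and 19.8 TPM (at least 284-fold, edgeR, adjusted p = 4.01e-05). In the kinase arm of the Par complex, one isoform was called and the other was not. Prkcz, an atypical protein kinase C, was at 0 in rBMSCs and at 34.5, 23.2 and 21.1 TPM in rEEOs (at least 285-fold, edgeR, adjusted p = 3.37e-05). Its paralogue Prkci was at 28.5, 23.6 and 28.5 TPM and 46.6, 28.5 and 33.1 TPM, under the threshold of 2 (0.65 ± 0.13, edgeR, adjusted p = 0.0046). Jup, for plakoglobin, was at 3.12, 4.06 and 3.48 TPM against 93.5, 56.4 and 61.1 TPM (4.49 ± 0.18, edgeR, adjusted p = 9.46e-06), while its relative Ctnnb1, for beta-catenin, was at 321, 288 and 313 TPM against 358, 246 and 187 TPM (0.07 ± 0.17, edgeR, adjusted p = 0.728). The 4 called lower were Panx3, at 2.19, 1.56 and 2.33 TPM in rBMSCs and 0 in rEEOs (at least 14.8-fold lower), Mpdz (-4.38 ± 0.41), Amot (-3.79 ± 0.41) and Dlg1 (-2.63 ± 0.37). Mpdz encodes the paralogue of Patj, and it was at 26.2, 20.6 and 24.1 TPM in rBMSCs against 1.76, 0.83 and 0.39 TPM in rEEOs (edgeR, adjusted p = 0.000188), the opposite direction to Patj. The genes of this list were named after their values were seen.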

How the data were processed

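Total RNA of 3 rEEOs and 3 rBMSCs samples was sequenced by the authors (oligo(dT) selection, single-end reads, BGISEQ), trimmed with Trim Galore and aligned with Bowtie2 2.2.5, and quantified with RSEM 1.3.1. The genome build in the submitters' processing notes is Rnor_6.0. The deposited table holds, per gene and library, the authors' RSEM expected counts, which are not normalized and not always whole where reads are shared between genes, as in Ctnna1 and Pard6g. It also holds the authors' TPM, which together sum to 81.3% to 82.7% of the full total since other genes were not used here, and the authors' FPKM, which was not used. The last row has 23 of 27 fields. The authors' group averages were not used.

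Expected counts were rounded. A gene entered the test when 3 or more of the 6 libraries held 10 counts of it, and the 10607 such genes were tested with edgeR 4.0.16 in R 4.3.3 (TMM, quasi-likelihood F test, cell type as the only term), with Benjamini-Hochberg adjustment over all of them. A gene was called at an adjusted p below 0.05 and an absolute log2 fold change above 2, the thresholds of the study. TMM factors were 0.866 to 0.885 in rBMSCs and 1.097 to 1.196 in rEEOs. Errors after ± are standard errors for log2 fold changes and SD over 3 libraries for levels and shares. For a gene at 0 in one cell type, the other cell type's mean CPM was divided by that of 3 counts per library, a bound that covers counting error only. Libraries of 10457958 to 15421501 counts leave genes near that level undecided. The script was tested on simulated data.

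The junction and polarity genes, the second list of such genes, the motifs and the comparisons were chosen with earlier results of these data known. Values per library were given for the highest gene of each family in either cell type, the genes with the largest differences and textbook members; other members were named after their values were seen. Cldn5, Cldn10, Cldn11, Cgn and Cdh2 were not analysed here. By gene ID, 61 of 61 members matched RefSeq genes of GRCr8, which was used for names, order along chromosomes and upstream sequence, with coordinates in that build and not in Rnor_6.0. Alternatives were the DESeq2 1.42.0 Wald test, DESeq2 size factors, library size only, other count filters, limma 3.58.1 on TPM after adding 1 or 0.1 and taking log2 (for genes reaching 1 TPM in 3 libraries), an absolute log2 fold change above 1, a replicate block and leaving out each library. Some of the genes counted here are not reported by name.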

Additional observations from a re-analysis of the deposited data

How the results depend on the processing

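Of the 54 tested genes, 43 kept their direction and stayed called, or not called, at the same fold threshold in every alternative fit that tested them, and 11 changed in at least one; the cause was not tested. Among these 43, 4 genes that were not called crossed the adjusted p threshold alone: by limma, Cldn12 (0.106 on log2(TPM + 1) and 0.113 on log2(TPM + 0.1)) and Mpp5 (0.0932 and 0.0961), by edgeR with library size only, Cdh24 (0.0505), and by edgeR without rEEOs replicate 1, Mpp2 (0.01). Of the 54, 9 crossed it in at least one fit. Among the rest of these, Ctnnd1 and Tjp1 passed it without rEEOs replicate 1 (edgeR, -0.77, adjusted p = 0.00169, and -0.48, adjusted p = 0.00622). Pard3 passed it with library size only (edgeR, 0.48, adjusted p = 0.0442). At an absolute log2 fold change above 1, 31 genes were higher and 12 lower, with Mpp5 and Pard6g added. At that threshold 25.1% of all genes tested were higher and 21.6% lower. The number of junction and polarity genes called higher lay between 25, where a filter of 50 counts left 45 of them in the test, and 33, with a filter of 1 count and 61 in the test. Of all genes tested, 14.0% and 15.8% were higher under these filters. Leaving out one library gave 30 to 30 higher and 10 to 14 lower, against 16.0% to 17.2% and 12.4% to 15.7% of all genes tested. In the second list, 11 genes instead of 4 were lower at an absolute log2 fold change above 1, where 21.6% of all genes tested were lower. Leaving out one library gave 15 to 15 higher and 4 to 5 lower in that list. Library size only, which moved the median of all genes to 0.46, turned the sign of Ctnna1 (0.30), Ctnnd1 (0.20) and Tjp1 (0.089), none of them called, and put Cldn19 at -1.87. Limma on log2(TPM + 1) put Cldn19 at -0.91, Cdh6 at 1.91 and Cldn14 at 1.42, all short of the threshold, and Pard6a at -0.15; on log2(TPM + 0.1) Pard6a was at -0.31. Leaving out one library gave log2 fold changes of -0.23 to 0.040 for Ctnna1, -0.77 to 0.089 for Ctnnd1, -0.020 to 0.20 for Pard3 and -0.58 to 0.50 for Pard6a. With the replicate number as a block the junction and polarity calls were 30 higher and 11 lower, and 15 and 4 in the second list, and Pard6a was at -0.028. The numbers were not taken to pair the samples, since deviations from the group means correlated at 0.17, 0.19 and -0.17 for replicates 1, 2 and 3, and not every sample correlated best with its own number. Genes with few counts, such as the 7 below the filter, are limited by depth, and the spread of the rEEOs libraries limits the precision of genes high in replicate 1.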
